A study of Danio rerio with 2 samples.

Results

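The collagen genes are the 29 genes, of 15411 in the deposited gene list, whose name is col, a collagen number, the letter a and a chain number, such as col1a1a or col17a1a. They were measured in single cells of the larval zebrafish caudal fin fold at 24 hours post amputation (hpA). The cut library came from a pool of about 150 regenerating caudal fin folds of larvae amputated at 3 days post fertilization (dpf), and the uncut library from a pool of about 150 intact caudal fin folds of the same time point. No transgene, mutation or drug distinguishes the pools in the labels, and the strain of these larvae is not given there. Each condition is 1 library of pooled larvae, so no test between conditions was possible, all differences below are between these libraries, and all intervals are 95% intervals for counting error only.

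Collagens are secreted matrix proteins built from chains that wind around each other. The fibrillar collagens (I, II, III, V, XI, XXIV and XXVII) form ropes that give tissue its tensile strength. Collagen IV and the multiplexins XV and XVIII lie in basement membranes, FACIT collagens sit on the surface of fibrils, and transmembrane collagens such as XVII anchor epithelial cells to the layer below them. In the zebrafish fin fold, the folds are held up by actinotrichia, stiff fibres made largely of collagens I and II that epidermal and mesenchymal cells lay down. Many zebrafish chains have duplicate genes, marked a and b.

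By class, 13 of the 29 genes are fibrillar, 3 belong to the basement membrane, 6 are FACIT, 1 is transmembrane (col17a1a) and 6 fall in none of these (collagens VIII, X and XXVIII). Of them, 16 had at least 200 UMIs (unique molecular identifiers, each marking 1 captured RNA molecule) over both libraries, 3 had 50 or more but under 200, and 10 had fewer than 50. RefSeq lists 60 zebrafish genes of this naming, and the 31 that are not among the 29 were not analysed here. The assay captures the end of each transcript, so levels are given as UMIs per 1000000 UMIs of the cells in question (UPM), without division by gene length.

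The cut library held 762 cells with 7033569 UMIs, or 7212 in its median cell, and the uncut library 878 cells with 10458222 UMIs, or 10476.5 in its median cell. The libraries shared 0 cell barcodes. Cells were clustered without the collagen genes. Of 21 clusters, 14 could be called by a cell type from marker genes, and the other 7 held 219 cut and 300 uncut cells. Mesenchyme-like cells were clusters 2 and 12 (53 cut and 165 uncut cells), basal epidermis-like cells were clusters 7 and 16 (31 cut and 105 uncut cells), and 16 cut and 28 uncut cells of cluster 14, with all 10 listed markers of the apical epithelial cap or the distal fold raised, are called cap-like below. The markers of these 2 groups overlapped. Cluster 14 also had 6 of 9 basal epidermis markers raised, and of the 10 cap markers 6 were raised in cluster 7 and 4 in cluster 16. Cluster 4 (38 cut and 104 uncut cells), led by ucp1 and tat, had 8 of 11 mesenchyme markers raised but stayed unnamed, since its depth was low (median of 2155 UMIs per cut cell and 3759 per uncut cell) and no marker was among its leading genes. The label erythroid-like went against the data for 9 of its 18 cells, which had 0% haemoglobin UMIs and no UMI of alas2, cahz or slc4a1a. At least 10% of UMIs were collagen in 8 of these 9 cells, so the collagen values of the cluster are not read as those of blood.

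Collagen RNA was lower in the cut library. It took 0.438% (0.433 to 0.443) of all UMIs in the cut library, against 1.753% (1.745 to 1.761) in the uncut library. Most of it was col1a1a, the main chain gene of collagen I, which alone made up 79.0% of collagen UMIs in the cut library and 82.1% in the uncut library. Without col1a1a, the other 28 genes took 0.0922% of UMIs in the cut library and 0.313% in the uncut library. The fibrillar class had 30363 UMIs in the cut library and 180389 in the uncut library, far above every other class in both. The transmembrane class had 205 cut and 953 uncut UMIs, the FACIT class 96 cut and 1291 uncut UMIs, the basement membrane class 147 cut and 568 uncut UMIs, and the remaining class 18 cut and 162 uncut UMIs.

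**Figure D1:**
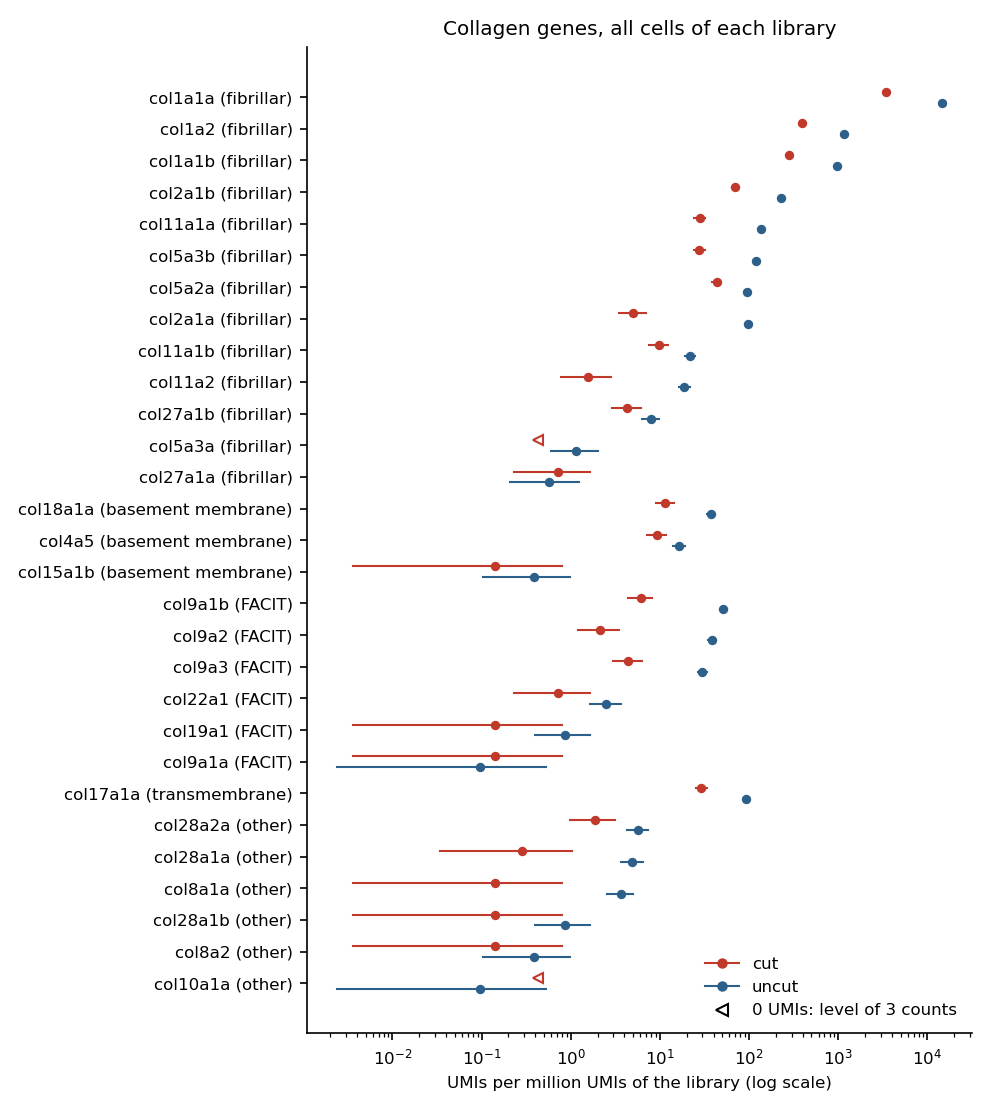
Level of each of the 29 collagen genes over all cells, grouped by class. The x axis is UPM on a log scale, red points are the cut library and blue points the uncut library, bars are exact Poisson 95% intervals, and a triangle stands at the level of 3 counts for a gene with 0 UMIs. The col1a1a points, at 3461 UPM in the cut library and 14399 UPM in the uncut library, lie far to the right of all others.

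Among the fibrillar genes, col1a1a stood at 3461 UPM (3418 to 3505) in the cut library and 14399 UPM (14327 to 14472) in the uncut library, a log2 ratio of cut to uncut of -2.06 (-2.08 to -2.04). Its partner in collagen I, col1a2, stood at 388 UPM in the cut library and 1146 UPM in the uncut library (log2 -1.56, -1.62 to -1.503). The duplicate col1a1b had 278 UPM in the cut library and 974 UPM in the uncut library (log2 -1.81, -1.88 to -1.74). All 3 collagen I genes were thus at least 2-fold lower in the cut library, and the interval of each ratio excludes equality.

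The other fibrillar genes were much less abundant. The actinotrichia gene col2a1b had 69.7 UPM in the cut library and 231 UPM in the uncut library (log2 -1.73, -1.87 to -1.59). For collagen V, whose chains mix into collagen I fibrils, col5a2a had 43.2 UPM in the cut library and 95.3 UPM in the uncut library (log2 -1.14), and col5a3b had 27.6 UPM in the cut library and 121 UPM in the uncut library (log2 -2.13). The col5a2a gene thus had the higher level of this pair in the cut library and the lower level in the uncut library. For collagen XI, a partner of collagen II in cartilage, col11a1a had 28.01 UPM in the cut library and 136 UPM in the uncut library (log2 -2.28), and col11a1b had 9.81 UPM in the cut library and 21.6 UPM in the uncut library (log2 -1.14, -1.55 to -0.74).

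A separate set of 5 genes had still lower ratios. The cartilage and notochord gene col2a1a had 4.98 UPM in the cut library and 96.8 UPM in the uncut library (log2 -4.28, -4.81 to -3.80), and the collagen XI gene col11a2 had 1.56 UPM in the cut library and 18.7 UPM in the uncut library (log2 -3.58). The 3 well measured FACIT genes, all of collagen IX, which coats collagen II fibrils, were col9a1b (6.11 UPM cut, 51.5 UPM uncut, log2 -3.08), col9a2 (2.13 UPM cut, 38.6 UPM uncut, log2 -4.18) and col9a3 (4.41 UPM cut, 29.8 UPM uncut, log2 -2.76). These values rest on a few cells, which are described below.

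In the basement membrane class, the multiplexin gene col18a1a had 11.5 UPM in the cut library and 37.7 UPM in the uncut library (log2 -1.71, -2.07 to -1.36). The network chain gene col4a5 had 9.24 UPM in the cut library and 16.3 UPM in the uncut library, with a ratio (log2 -0.81, -1.25 to -0.39) that did not reach 2-fold. A single cell of cluster 2 held 32.3% of the cut col4a5 UMIs, and without the highest cell of each library the log2 ratio was -1.31. The transmembrane gene col17a1a, a part of the hemidesmosomes that hold basal keratinocytes to the basement membrane, had 29.2 UPM in the cut library and 91.1 UPM in the uncut library (log2 -1.65, -1.87 to -1.43).

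Of the 3 genes with 50 or more but under 200 UMIs, col28a2a had 13 cut and 59 uncut UMIs (log2 -1.61, -2.60 to -0.73) and col28a1a, another gene of collagen XXVIII, 2 cut and 51 uncut UMIs (log2 -4.10, -7.18 to -2.17). The fibrillar col27a1b, with 30 cut and 82 uncut UMIs, was not past 2-fold (log2 -0.88). The 10 genes under 50 UMIs were too sparse for a ratio. They were the fibrillar col5a3a (0 cut and 12 uncut UMIs, 8 of the 12 in 1 cell) and col27a1a (5 cut, 6 uncut), the basement membrane gene col15a1b (1 cut, 4 uncut), the FACIT genes col9a1a (1 cut, 1 uncut), col19a1 (1 cut, 9 uncut) and col22a1 (5 cut, 26 uncut), and, of the remaining class, col8a1a (1 cut, 38 uncut), col8a2 (1 cut, 4 uncut), col10a1a (0 cut, 1 uncut) and col28a1b (1 cut, 9 uncut). The 0 cut UMIs of col5a3a and col10a1a allow up to 0.427 UPM each (3 counts).

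Over all cells, 17 of the 19 genes with at least 50 UMIs were at or below a log2 ratio of -1, a limit that 7.7% of all 8401 genes with as many UMIs passed, and 0 were at or above 1, which 2.4% of all genes were. All 19 ratios were below 0, with a median of -1.81 for the collagen genes and 0.05 for all genes. The libraries differed in their mix of cells: mesenchyme-like cells gave 5.68% of all UMIs in the cut library and 19.3% in the uncut library, basal epidermis-like cells 5.79% in the cut library and 13.5% in the uncut library, and superficial epidermis-like cells 64.5% in the cut library and 35.5% in the uncut library. In the sum over all cells, fewer cells of a type and less RNA per cell cannot be told apart. When the uncut level of each cluster was weighted by that cluster's share of UMIs in the cut library, a step added after the data were seen, 6 of the 19 genes stayed at or below -1, where 1.15% of all genes were, and 0 were at or above 1, where 2.56% were. The 6 genes were col2a1a, col9a1b, col9a2, col9a3 and col11a2, which lay over 80% in the 4 cells described below, and col28a1a, which had 2 cut UMIs. The median by this measure was -0.69 for the collagen genes and 0.13 for all genes, and 4 collagen genes were above 0 (col27a1b at 0.57, col11a1b at 0.47, col5a2a at 0.23 and col4a5 at 0.15). The col1a1a ratio was -0.83 and the col1a2 ratio -0.16 by this measure.

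**Figure D2:**
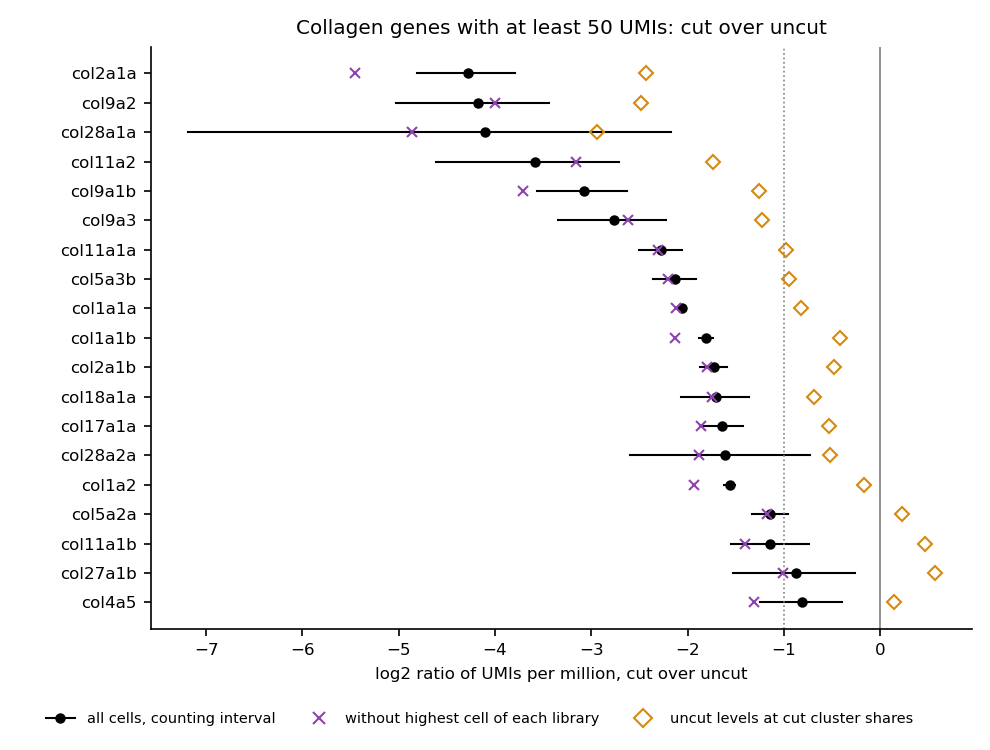
Log2 ratio of cut to uncut for the 19 collagen genes with at least 50 UMIs. Black points are all cells with the counting interval, purple crosses leave out the highest cell of each library, orange diamonds set uncut levels at the cluster shares of the cut library, and the dotted line marks -1. All black points lie below 0, while 4 orange diamonds lie above it.

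Mesenchyme-like cells held 41.5% of collagen UMIs in the cut library and 44.2% in the uncut library, cluster 4 a further 21.9% in the cut library and 21.3% in the uncut library, and basal epidermis-like cells 19.2% in the cut library and 22.3% in the uncut library. Superficial epidermis-like cells, the most numerous group, held 1.57% in the cut library and 1.09% in the uncut library. Collagen made up the largest part of a cluster's UMIs in cluster 12 (7.34% cut, 9.81% uncut), followed by cluster 4 (6.76% cut, 8.55% uncut) and cluster 16 (5.09% cut, 7.76% uncut), leaving aside the mixed erythroid-like cluster. Lower shares were found in cluster 2 (1.87% cut, 2.86% uncut), cluster 7 (1.31% cut, 2.53% uncut) and cap-like cells (1.295% cut, 2.004% uncut). The share was lower in cut than in uncut cells in all 6 of these clusters.

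Several genes lay mostly in 1 cell group. The transmembrane col17a1a lay in basal epidermis-like cells for 79.5% of its UMIs in the cut library and 83.4% in the uncut library, and had 0 cut and 1 uncut UMIs in mesenchyme-like cells. The same cells held most UMIs of col5a3b (74.7% cut, 86.5% uncut), col18a1a (67.9% cut, 76.1% uncut), col28a2a (76.9% cut, 78.0% uncut) and col11a1a (57.9% cut, 71.7% uncut). Mesenchyme-like cells in turn held most UMIs of col11a1b (78.3% cut, 84.96% uncut), col27a1b (90% cut, 76.8% uncut) and col5a2a (64.1% cut, 68.1% uncut). The duplicates col11a1a and col11a1b, and the collagen V genes col5a3b and col5a2a, thus lay in different cell groups in both libraries. For col4a5 the place differed between the libraries: 47.7% of its cut and 10.6% of its uncut UMIs lay in mesenchyme-like cells, where 1 cell held 21 of the 31 cut UMIs, and 18.5% of its cut and 48.2% of its uncut UMIs in basal epidermis-like cells. The col2a1a gene had 997 of its 1012 uncut UMIs but 0 of its 35 cut UMIs in mesenchyme-like cells, and 0 in basal epidermis-like cells of both libraries. This contrast rests on single cells described below. In 3 uncut cells whose markers go against the mesenchyme-like label lay 493, 314 and 176 of the UMIs, and in 1 cut cell of cluster 8 lay 27. The duplicate gene col2a1b was shared between the groups. It lay in basal epidermis-like cells for 38.8% of its UMIs in the cut library and 42.5% in the uncut library. Mesenchyme-like cells held 32.0% of its UMIs in the cut library and 35.4% in the uncut library.

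**Figure D3:**
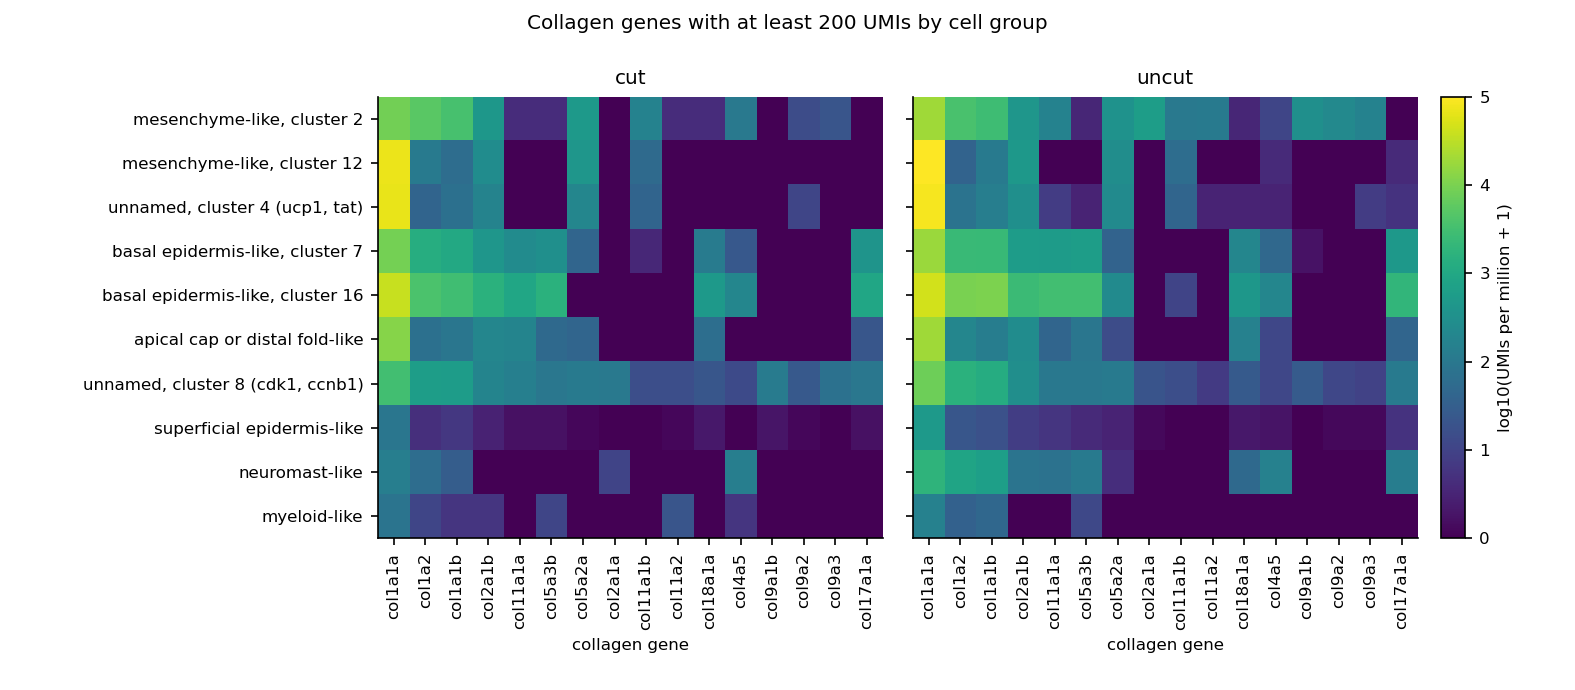
Level of the 16 collagen genes with at least 200 UMIs in 10 cell groups, cut library left and uncut library right. The colour is log10 of UPM plus 1. In both panels col1a1a is high in the mesenchyme-like, low-depth (cluster 4), basal epidermis-like and cap-like groups, and col17a1a and col5a3b are high in the basal epidermis-like group.

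Myeloid-like cells were taken as a reference for the level of free RNA. That they make no RNA of these genes themselves is an assumption that was not tested. They had 83.7 UPM of col1a1a in the cut library and 159 UPM in the uncut library, in 10 of 36 cut cells (27.8%, median depth 2488 UMIs) and 9 of 11 uncut cells (81.8%, median depth 4221 UMIs), and 0 UMIs of col5a2a and col17a1a in both. Superficial epidermis-like cells had 90.6 UPM of col1a1a in the cut library and 475 UPM in the uncut library, with UMIs in 125 of 380 cut cells (32.9%) and 187 of 224 uncut cells (83.5%). Thinned to 2000 UMIs a cell, col1a1a was found in 11.8% of cut and 27.7% of uncut superficial epidermis-like cells, against 14.3% of cut and 45.5% of uncut myeloid-like cells. These shares do not exceed those of the myeloid-like cells. Whether they are background was not tested, since a share of thinned cells cannot separate free RNA from a cell's own RNA. The summed level in uncut superficial epidermis-like cells was above that of uncut myeloid-like cells, and a few cells stood apart: 3 cut and 9 uncut superficial epidermis-like cells had at least 50 collagen I UMIs, as 0 myeloid-like cells did. The highest col1a1a share of a cell was 0.916% of UMIs in cut and 4.18% in uncut superficial epidermis-like cells, against 0.233% in cut and 0.0655% in uncut myeloid-like cells. The 3 collagen genes that could be compared in superficial epidermis-like cells (col1a1a, col1a1b and col1a2) were all at or below -1, where 0.61% of genes were (2.58% were at or above 1). How much of this difference is background was not tested.

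Within mesenchyme-like cells the picture depended on the gene. The fibrillar class took 3.19% (3.13 to 3.25) of UMIs in cut cells and 3.97% (3.94 to 3.99) in uncut cells. The main gene, col1a1a, stood at 24139 UPM in cut cells and 32557 UPM in uncut cells (log2 -0.43, -0.46 to -0.40), with UMIs in 49 of 53 cut cells and 163 of 165 uncut cells. The level of col5a2a was higher in cut cells, at 488 UPM (422 to 561), than in uncut cells, at 337 UPM (log2 0.53, 0.30 to 0.77). It had UMIs in 39 of 53 cut cells (73.6%) and 130 of 165 uncut cells (78.8%), and after thinning to 2000 UMIs in 53.9% of cut and 47.3% of uncut cells. Thinned to 4000 UMIs, it was found in 68.4% of the 38 cut cells and 58.3% of the 151 uncut cells that were deep enough. For col2a1b the counting interval included equality, at 393 UPM in cut cells and 424 UPM in uncut cells (log2 -0.11, -0.36 to 0.14).

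Both minor fibrillar genes of the mesenchyme-like cells were higher in cut cells. The col27a1b gene stood at 67.6 UPM in cut cells and 31.3 UPM in uncut cells (log2 1.11, 0.40 to 1.78, from 27 cut and 63 uncut UMIs), and at a log2 ratio of 0.97 without the highest cell of each library. The col11a1b gene stood at 135 UPM in cut cells and 95.4 UPM in uncut cells (log2 0.50, 0.04 to 0.95). Without the highest cell of each library 0.15 remained, near the median of 0.16 for all genes in mesenchyme-like cells. For col1a2 and col1a1b single cells decided the direction. The col1a2 level was 4019 UPM in cut cells and 3107 UPM in uncut cells (log2 0.37), but 1 cut cell held 55.4% of the cut UMIs and 1 uncut cell 24.6% of the uncut UMIs, and without them the ratio was -0.37. The col1a1b level was 2642 UPM in cut cells and 2378 UPM in uncut cells (log2 0.15), with 54.2% of cut UMIs and 24.5% of uncut UMIs in 1 cell each, and without them the ratio was -0.55.

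In all, 6 of the 13 collagen genes with at least 50 UMIs in mesenchyme-like cells were at or below -1, where 3.01% of 3483 genes were, and 1, col27a1b, was at or above 1, where 4.97% were. The median was -0.43 for the collagen genes and 0.16 for all genes. The 6 low genes were those of collagens II, IX and XI: col2a1a with 0 cut and 997 uncut UMIs, col9a1b with 0 cut and 520 uncut, col9a2 with 4 cut and 383 uncut, col9a3 with 6 cut and 280 uncut, col11a2 with 1 cut and 191 uncut, and col11a1a with 1 cut and 270 uncut. Taking 3 counts as the floor per library for a count of 0, the col2a1a ratio was at or below -6.04 and the col9a1b ratio at or below -5.105. Leaving out the cells that had 20 or more col2a1a UMIs took these 6 genes under 50 UMIs, so they could no longer be compared. The 7 genes left had a median of 0.35. That 0 of the 7 were at or below -1 was fixed in advance, since none of them had been so before this step. It therefore says nothing about the 6 low genes in the other cells.

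The clusters behind the mesenchyme-like label differed, and so did their mix in the libraries. Cluster 12 gave 97366 of 399648 mesenchyme-like UMIs in cut cells and 338790 of 2013210 in uncut cells. The pooled mesenchyme-like ratios therefore also carry this difference in mix. In cluster 12, led by ecrg4a and hapln1a, col1a1a took 7.23% of the UMIs of the median cut cell (1.95 to 10.8%) and 9.55% of the median uncut cell (1.52 to 17.6%). In cluster 2, led by cd248a and hhip, it took 0.186% of the median cut cell (0 to 6.96%) and 0.588% of the median uncut cell (0 to 9.28%). In cluster 4 it took 5.88% of the median cut cell (0 to 17.98%) and 8.28% of the median uncut cell (0.0963 to 32.8%). The ranges of cut and uncut cells overlapped in each of the 3 clusters. The summed col1a1a level differed most, among these 3 clusters, in cluster 2, with 8608 UPM in cut cells and 19493 UPM in uncut cells (log2 -1.18, -1.24 to -1.12). In cluster 12 it was 72356 UPM in cut cells and 97122 UPM in uncut cells (log2 -0.43, -0.46 to -0.39). In cluster 4 it was 67010 UPM in cut cells and 84654 UPM in uncut cells (log2 -0.34, -0.38 to -0.30). In cluster 2, 1 cut cell had 576 of the 2602 cut col1a1a UMIs. The counting intervals do not cover such spread between cells, so whether the clusters differ in this ratio was not tested. The col5a2a ratio was 0.54 in cluster 2 and 0.61 in cluster 12, and -0.28 (-1.05 to 0.42) in cluster 4, where it rested on 20 cut and 111 uncut UMIs. The col2a1b ratio was 0.06 in cluster 2, -0.79 in cluster 12 and -0.85 in cluster 4.

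Collagen I is usually built from chains of col1a1 type together with col1a2, and the balance of these RNAs set the clusters apart. In cluster 12, 100 UMIs of col1a1a and col1a1b came with 0.156 col1a2 UMIs in cut cells and 0.0395 in uncut cells, and in cluster 4 with 0.0598 in cut cells and 0.0931 in uncut cells. Cap-like cells had 0.572 in cut cells and 1.04 in uncut cells. In cluster 2 the value was 43.7 (41.1 to 46.3) in cut cells and 16.7 (16.2 to 17.2) in uncut cells. Without the cell with most UMIs of these genes in each library, a step added after the data were seen, it was 28.2 (25.9 to 30.6) in cut cells and 13.4 (12.95 to 13.8) in uncut cells. Basal epidermis-like cells had 12.1 in cut cells and 12.7 in uncut cells. In cluster 12 the col1a1b gene, like col1a2, was scarce beside its duplicate col1a1a. It had 6 cut and 37 uncut UMIs there, beside 7045 cut and 32904 uncut UMIs of col1a1a. For mesenchyme-like cells as a whole the value was 15.01 in cut cells and 8.90 in uncut cells, and it was 7.49 in cut cells and 6.92 in uncut cells when the cell with most UMIs of these genes was left out of each library.

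Cell by cell, the balance was spread over its whole range. Of cells with at least 50 collagen I UMIs, 64 of 108 cut cells and 213 of 390 uncut cells had under 2% of them from col1a1b and col1a2, and 17 cut and 38 uncut cells had 50% or more. Under 2% were 13 of 15 such cut cells and 40 of 41 uncut cells in cluster 12, 31 of 32 cut and 91 of 96 uncut cells in cluster 4, and 9 of 11 cut and 19 of 21 uncut cap-like cells. Cells with 50% or more were 6 of 13 cut and 13 of 79 uncut cells in cluster 2, and 6 of 24 cut and 18 of 102 uncut basal epidermis-like cells. The others were 3 of 7 cut and 6 of 23 uncut cells in cluster 8, 2 of 2 cut cells of the mixed erythroid-like cluster and 1 of 3 uncut neuromast-like cells.

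**Figure D4:**
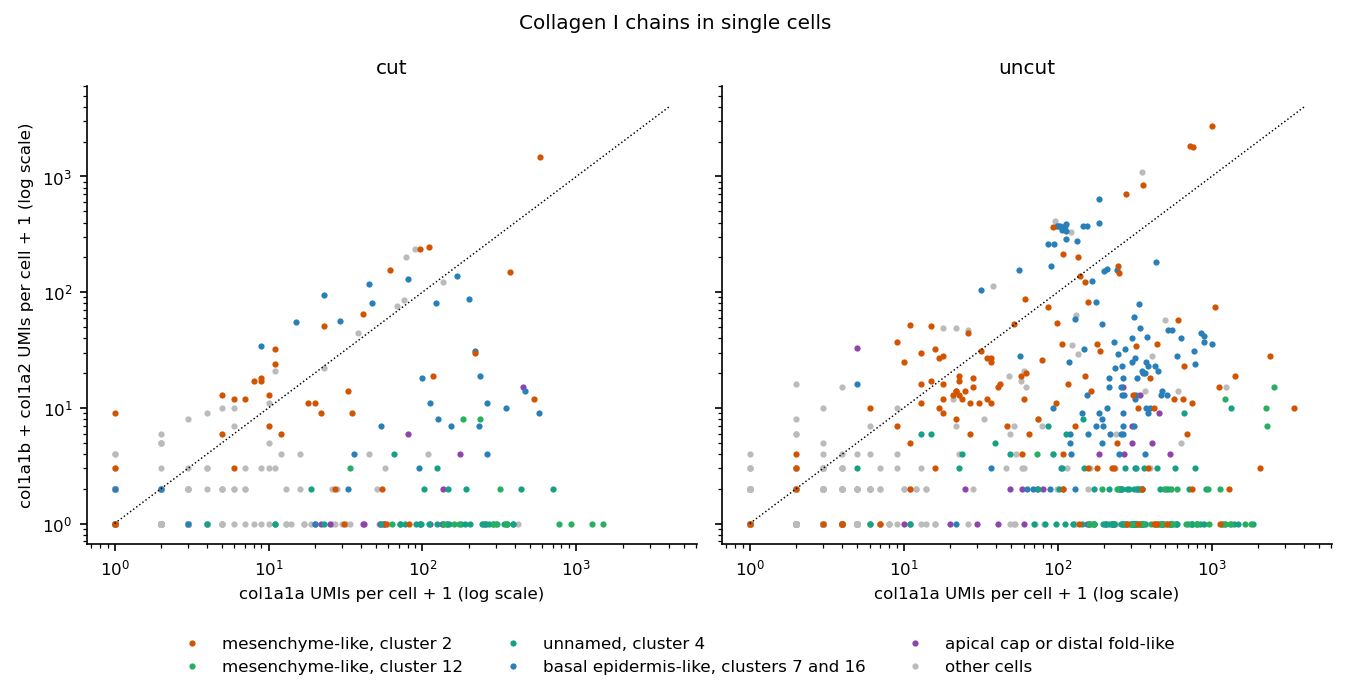
UMIs of col1a1a (x axis) and of col1a1b plus col1a2 (y axis) in each cell, both plus 1 on log axes, cut library left and uncut library right, coloured by cell group. The dotted line marks equal numbers. Cells of clusters 12 and 4 lie along the bottom at high col1a1a, and the 6 cells with at least 400 col1a2 UMIs lie at the top, above the line.

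A group of 6 cells, 1 cut and 5 uncut, had at least 400 col1a2 UMIs, a limit chosen after the values were seen. In the cut cell, of cluster 2, 8280 UMIs included 890 of col1a2, 572 of col1a1b and 576 of col1a1a. The 5 uncut cells, 4 of cluster 2 and 1 of cluster 8, held 458 to 1540 col1a2 UMIs each. Together the 6 cells held 37.8% of all col1a2 UMIs, 34.4% of col1a1b, 22.03% of col11a1b and 2.16% of col1a1a, and collagen made up 9.78 to 30.6% of their UMIs. They also held 92.3% of all UMIs of en1a and 77.5% of en1b, homeobox genes, and 60.8% of pdgfrl, and all 6 had UMIs of the small proteoglycan genes dcn and lum and of twist1a, while prrx1a, col5a3b and col17a1a had 0 UMIs in all 6.

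The genes of collagens II, IX and XI were concentrated further. In 4 cells with at least 20 col2a1a UMIs, 1 cut and 3 uncut, lay 96.5% of all UMIs of col2a1a, 94.2% of col9a1b, 93.7% of col11a2, 91.7% of col9a2, 81.9% of col9a3 and 84.6% of col8a1a, but 16.6% of col11a1a. The cut cell, in the cell division cluster 8 and with 2594 UMIs in all, had 27 UMIs of col2a1a, 29 of col9a1b, 11 of col9a3, 9 of col11a1a, 5 of col9a2 and 3 of col11a2. The 3 uncut cells, all placed in cluster 2, had 493, 314 and 176 UMIs of col2a1a and 267, 179 and 73 of col9a1b. All 4 had few col1a1a UMIs, 0 in the cut cell and 3, 1 and 0 in the uncut cells. They also held 97.7% of all UMIs of matn3a and 91.6% of epyc, cartilage matrix genes, 91.9% of shha, a signalling gene, and 61.0% of tbxta, the notochord transcription factor gene. Neither twist1a nor prrx1a had a UMI in any of them, whereas either gene had UMIs in 81.1% of the 37 cut cells and 90.1% of the other 121 uncut cells of cluster 2. All 11 listed mesenchyme markers but rcn3, with 9, 1 and 2 UMIs, were at 0 in the 3 uncut cells. The other cells of cluster 2 had UMIs of a median of 4 markers in the cut library (0 to 8) and 5 in the uncut library (0 to 9). The markers of these 3 uncut cells therefore go against the mesenchyme-like label that their cluster gave them. The limit and these genes were chosen after the values were seen.

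**Figure D5:**
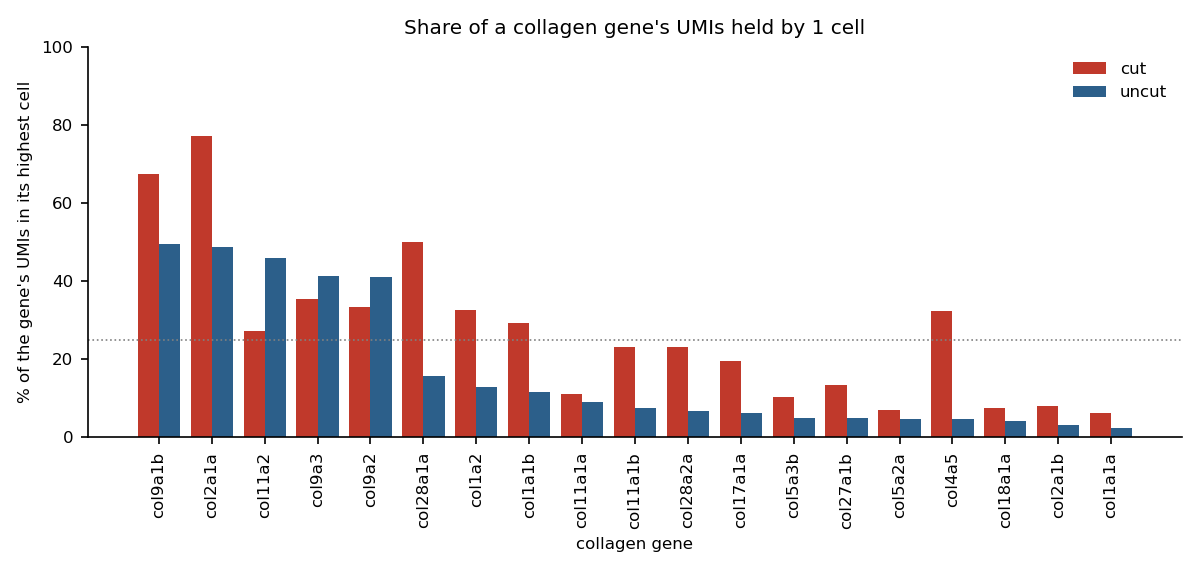
Percent of a gene's UMIs that lay in its highest cell, for the 19 collagen genes with at least 50 UMIs, cut bars left of uncut bars. The dotted line marks 25%. For col2a1a the highest cell held 77.1% in the cut library and 48.7% in the uncut library, and 9 genes passed the line in at least 1 library.

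In basal epidermis-like cells all 11 collagen genes with at least 50 UMIs were lower in cut than in uncut cells, with a median of -0.97 for the collagen genes and 0.125 for all genes. Of these, 4 were at or below -1, where 4.69% of 2283 genes were, and 0 were at or above 1, where 9.42% were. The level of col1a1a was 10267 UPM in cut cells and 20052 UPM in uncut cells (log2 -0.97, -1.01 to -0.92), and 1.23% of the UMIs of the median cut cell (0 to 6.36%) and 2.1% of the median uncut cell (0.015 to 10.9%), with overlapping ranges. The 4 genes past the limit were col1a1b (1109 UPM cut, 2885 UPM uncut, log2 -1.38, -1.52 to -1.24), col11a1a (280 UPM cut, 722 UPM uncut, log2 -1.37), col5a3b (356 UPM cut, 775 UPM uncut, log2 -1.12) and col1a2 (1382 UPM cut, 2917 UPM uncut, log2 -1.08). Without the highest cell of each library these ratios were between -1.45 and -1.06.

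Over both clusters together, the hemidesmosome gene col17a1a was nearer to equality, at 400 UPM (341 to 466) in cut cells and 563 UPM in uncut cells (log2 -0.49, -0.75 to -0.25). It had UMIs in 20 of 31 cut cells and 74 of 105 uncut cells. A single cell held 24.5% of its cut UMIs. Without the highest cell of each library it took 0.0335% of cut and 0.0527% of uncut UMIs. The clusters differed: it took 0.0380% of cut and 0.0456% of uncut UMIs in cluster 7. In cluster 16 it took 0.0896% (0.049 to 0.150) of cut UMIs, from 14 UMIs, and 0.194% (0.168 to 0.223) of uncut UMIs. The basement membrane gene col18a1a stood at 135 UPM in cut cells and 213 UPM in uncut cells (log2 -0.66, -1.098 to -0.24). Their counting intervals, which do not cover the spread between cells, lie above that of col1a1b. For col5a2a (16 cut and 74 uncut UMIs) and col28a2a (10 cut and 46 uncut UMIs) the intervals included equality. The smaller cluster 16, led by lamb4 and itgb4 with 6 cut and 19 uncut cells, had higher levels than cluster 7 of col17a1a, col5a3b, col11a1a, col1a1a, col1a1b, col1a2, col2a1b and col18a1a in both libraries. These levels are shares of UMIs, and cluster 16 was shallower. Its median depth was 2162 UMIs per cut cell and 4917 per uncut cell, against 13958 cut and 14484 uncut in cluster 7. Higher levels therefore need not mean more collagen UMIs per cell. The log2 ratio of cluster 16 to cluster 7 was 1.24 in the cut library and 2.09 in the uncut library for col17a1a, 2.07 cut and 1.34 uncut for col1a1a, and 1.81 cut and 2.46 uncut for col11a1a. Cluster 16 made up 6 of 31 cut and 19 of 105 uncut basal epidermis-like cells.

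In cap-like cells, every cell of both libraries had col1a1a UMIs. The level was 12223 UPM in cut cells and 19069 UPM in uncut cells (log2 -0.64, -0.72 to -0.56), and per cell it had a median of 0.888% of UMIs in cut cells (0.305 to 2.16%) and 1.81% in uncut cells (0.0359 to 3.47%). Of 5 collagen genes compared, col1a2 (10 cut and 58 uncut UMIs, log2 -1.51) and col18a1a (9 cut and 45 uncut UMIs, log2 -1.30) were at or below -1, where 11.2% of genes were, and 0 were at or above 1, where 8.45% were. Below the limit of 50 UMIs, col11a1a had 26 cut UMIs, in 9 of 16 cells, and 12 uncut UMIs, in 7 of 28 cells, or 183 UPM cut and 41.5 UPM uncut (log2 2.14, 1.11 to 3.26). It was the reverse of the order in basal epidermis-like cells, and was chosen after its values were seen.

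The cells outside the mesenchyme-like and epidermis-like groups and cluster 4 held 15.9% of cut and 11.1% of uncut collagen UMIs, cap-like cells included. Cluster 8, led by cell division genes, had 1746 cut and 7747 uncut collagen UMIs, or 0.529% of its cut and 1.147% of its uncut UMIs. A single cell of each library held 24.3% of these cut and 19.4% of these uncut UMIs. In neuromast-like cells col4a5 had UMIs in 8 of 15 cut and 14 of 27 uncut cells, at 138 UPM in cut cells and 156 UPM in uncut cells (log2 -0.18, -1.16 to 0.72), levels above the 29.5 UPM of cut and 58.1 UPM of uncut basal epidermis-like cells. In the same neuromast-like cells 3 of 4 collagen genes (col1a1a, col1a1b and col1a2) were at or below -1, where 7.31% of genes were, and 0 at or above 1, where 3.36% were, but a single uncut cell held 96.3% of the uncut col1a1b and 96.2% of the uncut col1a2 UMIs. In skeletal muscle-like cells (4 cut and 8 uncut) lay 0 of 5 cut and 8 of 26 uncut UMIs of col22a1, a FACIT gene of the muscle to tendon junction. Of these 8 UMIs, 6 lay in 1 cell, and 2 of the 8 uncut cells had any. The uncut muscle-like cells gave 169270 of the 10458222 UMIs of their library.

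Genes that modify, fold, export, cleave and crosslink collagen were taken from a list of 47, of which 33 were among the deposited genes. Over all cells, 15 of the 24 with at least 50 UMIs were at or below -1, against 7.7% of all genes, and 0 at or above 1, against 2.4%, with a median of -1.13. In mesenchyme-like cells 1 of 21 was at or below -1, the prolyl hydroxylase gene p4ha1b (5 cut and 53 uncut UMIs, log2 -1.07, -2.75 to 0.24), and 1 was at or above 1, bmp1a, whose product cleaves the propeptides of fibrillar collagens (57.6 UPM cut, 26.8 UPM uncut, log2 1.101, 0.33 to 1.83), with a median of 0.28 over the 21. All genes passed these limits at 3.01% and 4.97% there, so 1 of 21 is near the background in both directions. Of the 23 cut bmp1a UMIs 30.4% lay in 1 cell, and of the 5 cut p4ha1b UMIs 40% lay in 1 cell. In basal epidermis-like cells 0 of 12 were at or below -1, against 4.69% of all genes, and 1 was at or above 1, against 9.42%, with a median of 0.14, while the collagen genes had a median of -0.97 there. Of 13 collagen receptor genes listed, 3 were among the deposited genes and 1 could be compared over all cells, where it was not past 2-fold.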

How the data were processed

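The authors counted UMIs of 1 cut and 1 uncut Chromium library (Single Cell 3' v3.1 kit) with Cell Ranger 3.1.0 on danRer11, per the labels and methods, and deposited raw counts per gene and cell for each library and for both aggregated. Aggregation left the uncut counts unchanged and lowered the cut counts to 95.34% of their total. The aggregated counts were used, and the separate matrices as an alternative. No column of other samples was found (0).

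The software was Python 3.11.15 with scipy 1.17.1 and numpy 2.4.6. Clusters were made with Leiden (scanpy 1.11.5, leidenalg 0.10.2, python-igraph 0.11.9; resolution 1, 15 neighbours, 20 principal components, seed 1) without the collagen genes. K-means (scikit-learn 1.9.0) and other resolutions were alternatives, and figures were drawn with matplotlib 3.10.9. A name needed at least 3 of a class's markers raised by a log2 ratio of 0.5 with UMIs in 25% of cells. A cluster stayed unnamed when other classes led its 10 leading genes, when cell division genes led it, or when its median depth was under 1/3 of that of at least 1 library and no marker led (cluster 4, at 0.30 cut and 0.36 uncut). Of 134 markers, 11 were not among the listed genes. All of these naming limits were chosen with the values in view, and names were rebuilt here.

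Levels are sums over cells with exact Poisson intervals, shares of cells have Clopper-Pearson intervals, and ratios have conditional binomial intervals, all at 95% and for counting error only. A count of 0 was read as up to 3 counts. Ratios were formed for genes with at least 50 UMIs, and a log2 ratio of 1 either way was the fold limit. With 1 library per condition no test was made. Each cell was thinned to 2000 or 4000 UMIs to compare shares of cells. Scrublet called 0 cut and 5 uncut doublets, and no cell was removed.

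Every collagen gene is accounted for. Those with at least 200 UMIs are named with values in both libraries, those with 50 or more but fewer with their ratio, and those under 50 by class with counts. Collagen processing and receptor genes are named where past the limit in mesenchyme-like cells. The members and lists were chosen with earlier results of these data known. The ratio calculation was run on simulated Poisson counts with known folds. Those counts had no spread between cells, so the run checks the calculation and not the ratios or intervals of these data.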

Additional observations from a re-analysis of the deposited data

Results flagged for a closer look

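For 2 collagen I genes the ratio of cut to uncut had opposite signs in different cell groups. The log2 ratio of col1a1b was 0.15 in mesenchyme-like cells and -1.38 in basal epidermis-like cells, and that of col1a2 was 0.37 in mesenchyme-like cells and -1.08 in basal epidermis-like cells. The difference was not tested, since there is 1 library per condition. Without the highest cell of each library the mesenchyme-like ratios were -0.55 for col1a1b and -0.37 for col1a2, and the basal epidermis-like ratios were -1.45 for col1a1b and -1.06 for col1a2, so all 4 were then below 0.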

How the results depend on the processing

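No paired analysis was possible because each condition has 1 library. Over all cells, the collagen median of -1.81 was -2.12 without the highest cell of each gene and -1.46 with each cell weighted equally. It was -0.69 with uncut levels at the cluster shares of the cut library, where 6 genes in place of 17 were at or below -1. By that weighting 4 genes turned positive: col27a1b (0.57), col11a1b (0.47), col5a2a (0.23) and col4a5 (0.15). In mesenchyme-like cells, leaving out cells with 20 or more col2a1a UMIs gave 0 genes at or below -1 and a median of 0.35. The count of 0 was fixed in advance, since this step took all 6 low genes under 50 UMIs. Other clusterings changed which cells were called mesenchyme-like, 53 cut and 165 uncut in the main setting. The group held 116 cut and 222 uncut cells at resolution 0.5, and 78 cut and 232 uncut at resolution 2. It held 203 cut and 361 uncut cells with K-means, and 91 cut and 269 uncut with cluster 4 added. The values below are thus not of the same cells. The fibrillar share of mesenchyme-like UMIs was 2.72% cut and 3.8% uncut without the cell with most collagen UMIs, 1.87% cut and 3.19% uncut at Leiden resolution 0.5, 3.88% cut and 4.7% uncut at resolution 2, 2.27% cut and 3.91% uncut with K-means and 3.9% cut and 4.81% uncut with cluster 4 added, so it was lower in the cut library under each. Without thinning, the share of the cells so grouped with a col5a2a UMI was 48.3% cut and 70.3% uncut at resolution 0.5. It was 32.5% cut and 59.8% uncut with K-means, and 57.1% cut and 70.6% uncut with cluster 4 added. In the main group it was 53.9% cut and 47.3% uncut after thinning to 2000 UMIs, and 68.4% cut and 58.3% uncut after thinning to 4000 UMIs. Unthinned and thinned shares cannot be set against each other, since cut cells had the lower depth. For resolution 2 this share is not given here. The number of col1a2 UMIs per 100 of col1a1a and col1a1b was 7.49 cut and 6.92 uncut without the cell with most UMIs of these genes. It was 9.83 cut and 6.27 uncut at resolution 2, 11.3 cut and 6.41 uncut with K-means and 9.26 cut and 5.77 uncut with cluster 4 added. At resolution 0.5 it was 9.57 in uncut cells, and the cut value is not given here, so the order there cannot be read. Of the collagen processing genes in mesenchyme-like cells, 0 were at or above 1 after subtracting the median of all genes and 2 with the separate matrices, in place of 1. The cause of these shifts was not tested. The removal of the highest cell in cluster 2, the cluster share weighting, the addition of cluster 4 and the removal of col2a1a cells were chosen after the data were seen. Precision is limited by the 53 cut mesenchyme-like and 31 cut basal epidermis-like cells and by genes with under 50 UMIs.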
